A study of Mus musculus with 12 samples.

Results

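Most of the genes described here handle iron in mouse macrophages or withhold it from microbes, and Saa3 is an acute-phase gene listed with them. They were chosen by symbol: Lcn2, Saa3, Slc11a1, Slc40a1, Slc11a2, Tfrc, Fth1, Ftl1 and Steap4, which are 9 of the 40847 rows of the count table. Of these 9 genes, 8 passed a filter on low counts that 14749 genes passed in all, and Steap4 did not. Messenger RNA was sequenced from fetal liver alveolar-like macrophages (FLAMs), mouse macrophages grown out of fetal liver, as 12 libraries in 4 groups of 3. Every group was cultured with GM-CSF at 30 ng/ml. The untreated group had nothing further, the TGFβ group had recombinant human TGFβ1 at 20 ng/ml, the Pam3 group had the TLR2 ligand Pam3CSK4 at 25 ng/ml for 18 h, and the Pam3+TGFβ group had both. The labels state neither a genotype nor whether the 3 libraries of a group came from separate cultures, so p-values measure only the spread between these libraries, which may be technical. The design asks how these cells respond to a bacterial lipopeptide mimic, and how that response differs when TGFβ is in the medium.

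Macrophages take up transferrin-bound iron through the transferrin receptor (Tfrc), move it out of the endosome through the divalent metal transporter DMT1 (Slc11a2), store it in ferritin cages built of heavy and light chains (Fth1 and Ftl1), and release it through ferroportin (Slc40a1). Microbes need the same metal, and macrophages restrict it by pumping divalent metals out of the phagosome with NRAMP1 (Slc11a1) and by secreting lipocalin 2 (Lcn2), which binds bacterial siderophores. Iron-regulatory proteins bind a stem-loop called the iron-responsive element in several of these messages. Binding in the 5′ untranslated region blocks translation, while binding in the 3′ untranslated region protects the message from decay. RNA sequencing measures the message and not the protein, so control of translation is not seen in these values.

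The elements are shown because they divide the members into messages whose level and messages whose translation iron is known to control. Annotated untranslated regions were searched for a C bulge, 5 paired bases and a loop of 6 bases. The loop had to read CAGTG and then A, C or T, and G-T pairs counted as paired. The search found elements in 4 members. The loop is in capitals, each element is 30 bases long, and positions are in GRCm39.
Slc40a1, 5′ untranslated region, chr1:45964624-45964653, minus strand: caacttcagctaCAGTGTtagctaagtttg
Fth1, 5′ untranslated region, chr19:9960096-9960125, plus strand: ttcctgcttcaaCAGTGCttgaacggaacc
Ftl1, 5′ untranslated region, chr7:45109202-45109231, minus strand: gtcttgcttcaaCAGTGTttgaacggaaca
Tfrc, 3′ untranslated region, chr16:32450037-32450066, plus strand: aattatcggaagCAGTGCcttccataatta
Tfrc, 3′ untranslated region, chr16:32450416-32450445, plus strand: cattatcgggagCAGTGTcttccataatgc
Tfrc, 3′ untranslated region, chr16:32450481-32450510, plus strand: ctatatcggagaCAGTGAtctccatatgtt
Tfrc, 3′ untranslated region, chr16:32450528-32450557, plus strand: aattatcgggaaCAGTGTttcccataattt
Both ferritin messages and the ferroportin message held 1 element each ahead of the coding sequence, and Tfrc held 4 behind it. Of 21592 protein-coding genes, 34 (0.157%) held such a match in a 5′ and 123 (0.57%) in a 3′ untranslated region. The pattern is narrow, and no match in Slc11a2 says only that these letters were not found there. A match is a description of the sequence.

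Library totals ran from 34036650 to 44374115 counts, so that 1 CPM (counts scaled to a common library size) stood for 31.5 to 44.3 counts. In 5 libraries (untreated replicate 3, TGFβ replicates 1 and 3, Pam3 replicates 2 and 3) the rows LOC118568312 and AY036118 together held 3.81% to 6.73% of the counts, against 0.107% to 1.28% in the other 7. These 5 libraries stood apart from the rest, and no Pam3+TGFβ library was among them, so calls that were lost or gained in a fit of the other 7 libraries are given both ways for the members and the list genes whose tests are printed. That fit has 1 library each for TGFβ and Pam3, which are assumed to vary like the other groups. All 8 macrophage markers passed the filter. Their summed level was 32029 to 36241 CPM untreated, 16755 to 17675 with TGFβ, 34975 to 36033 with Pam3 and 25733 to 26393 with both, so it was lower with TGFβ, as several members were. Lyz2, which makes up most of that sum, stood at 29824 ± 2123 CPM untreated and 15249 ± 460 with TGFβ. Of the 8, TGFβ lowered 6 and raised 1 (Fcgr1) without Pam3, and lowered 5 and raised 2 (Fcgr1 and Mertk) with it. Of all tested genes, TGFβ lowered 28.1% and raised 22.9% without Pam3, and lowered 23.8% and raised 21.5% with it. The log2 difference of Fcgr1 without Pam3 was 0.17, and 0.12 in the fit of the 7 libraries. Of the 8 alveolar macrophage markers, TGFβ raised 6 and lowered 2 (Marco and Fabp4) in each medium, and their summed level was 6060 to 6855 CPM untreated and 7685 to 8226 with TGFβ. Siglecf stood at 32.1 ± 2.10 CPM untreated and 300 ± 9.99 with TGFβ (SD, n = 3), and Marco at 2147 ± 266 and 123 ± 6.27. Among the 8 neutrophil markers Mpo had no count in any library, Ly6g had at most 3 and Elane at most 4, while Ngp and Ltf reached 38 and 34. Camp had 1 count or none in untreated libraries, 5 to 8 with TGFβ and 3 to 27 with Pam3. It was called higher with Pam3 without TGFβ, as Lcn2 and Saa3 were (adjusted p = 0.00273, and 0.575 in the fit of the 7 libraries). Among 7 erythroid markers Hbb-bs had no count and Hba-a2 at most 4 in a library, while Klf1 reached 9 and Alas2 14. Only Alas2 passed the filter, and it was called in no comparison. The 7 summed to at most 0.637 CPM in any library. The 4 dendritic cell markers summed to 4.60 to 5.65 CPM untreated, 1.23 to 1.94 with TGFβ, 3.85 to 4.94 with Pam3 and 1.69 to 2.53 with both. The 5 mast cell or basophil markers summed to 0.263 to 1.20 CPM untreated and at most 0.0741 CPM with TGFβ. The 4 endothelial markers summed to 2.47 to 2.94 CPM untreated, 2.46 to 2.74 with TGFβ, 2.00 to 4.03 with Pam3 and 2.98 to 3.87 with both. Of the 3 that were tested, TGFβ without Pam3 lowered 2 (Cdh5 and Kdr) and raised 1 (Pecam1). Pam3 in the presence of TGFβ raised Kdr. The 6 hepatocyte markers summed to 5.80 to 5.87 CPM untreated and 8.41 to 10.1 CPM with both agents, with Alb at 5 counts or fewer in every library. Most of that sum was Afp, at 5.77 ± 0.06 CPM untreated and 9.27 ± 0.87 CPM with both. Pam3 in the presence of TGFβ raised Afp (log2 difference 0.65), as did TGFβ in the presence of Pam3 (0.40). The part of these marker differences in the results was not tested. In bulk RNA, fewer cells that express a gene and less RNA per cell cannot be told apart.

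Levels are CPM scaled by TMM, given as mean ± SD of 3 libraries. Adjusted p-values are from edgeR's quasi-likelihood test with Benjamini-Hochberg adjustment over all 14749 genes, and a gene was called at an adjusted p under 0.05. Pam3 without TGFβ raised 6 of the 8 tested members and lowered 1, Slc40a1, where 9.62% of all tested genes were called higher and 8.66% lower. Pam3 in the presence of TGFβ raised 6 and lowered 2, Slc40a1 and Tfrc, against 20.4% of all genes higher and 18.1% lower. Upper-quartile scaling moved that split over all genes from 3008 higher and 2670 lower to 2477 higher and 3489 lower. TGFβ without Pam3 raised 1 member, Tfrc, and lowered 5, against 22.9% higher and 28.1% lower of all genes. TGFβ in the presence of Pam3 raised none and lowered 6, against 21.5% higher and 23.8% lower. For the interaction (the log2 response to Pam3 in medium with TGFβ less that in medium without it), 2 members were called higher and 3 lower, against 10.3% and 5.67% of all genes. Upper-quartile scaling moved that split from 1516 higher and 836 lower to 1255 and 1097. The median log2 difference over the 8 members was 0.61 and 1.05 for the Pam3 response without and with TGFβ, -0.65 and -0.74 for the TGFβ effect without and with Pam3, and -0.08 for the interaction. Over all tested genes the same medians lay between -0.02 and 0.0045. The comparisons share groups of libraries, so their counts are not independent of each other.

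**Figure D1:**
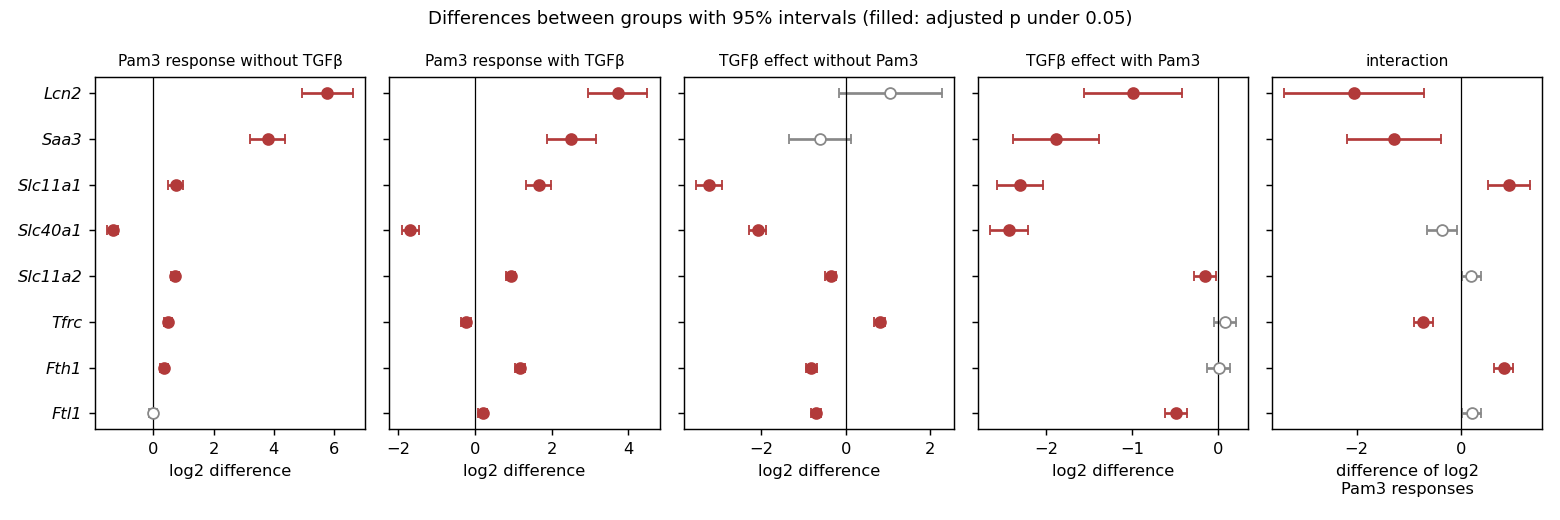
Log2 differences between groups (x axis, one panel per comparison, each with its own scale) for the 8 tested members (y axis), with 95% intervals from edgeR's fit to 12 libraries. Filled red points passed an adjusted p of 0.05 and open grey points did not. Slc40a1 lies left of 0 in the 4 comparisons of groups, while Tfrc lies right of 0 for Pam3 without TGFβ and left of 0 for Pam3 with it.

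Lcn2 (ENSMUSG00000026822, chr2:32274645-32278264, minus strand, 6 exons) encodes lipocalin 2, the siderophore-binding protein. Its level in the untreated libraries was 0.0526, 0.0241 and 0.342 CPM, which is 2, 1 and 12 counts. With TGFβ it was 0.194, 0.444 and 0.183 CPM, with Pam3 6.97, 7.49 and 7.75 CPM, and with both 4.39, 3.21 and 3.57 CPM. Every library with Pam3 was above every library without it, and the Pam3 libraries were all above those with both agents. The untreated and TGFβ libraries overlapped. The Pam3 response was a log2 difference of 5.77 (SE 0.41, adjusted p = 1.07e-09) without TGFβ and 3.73 (SE 0.37, adjusted p = 4.46e-08) with it. In the presence of Pam3, TGFβ lowered Lcn2 by 1.99-fold (log2 difference -0.99, SE 0.27, adjusted p = 0.00508). That call was lost with limma on the authors' normalized values (adjusted p = 0.138). Without Pam3, the TGFβ effect was 1.05 (95% interval -0.16 to 2.27, adjusted p = 0.143).

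The 12 counts of Lcn2 in untreated replicate 3 bear on its size. Without that library the untreated group held 3 counts in 2 libraries, so the fitted log2 values there are not firm sizes: 7.49 for the Pam3 response, 2.78 for the TGFβ effect without Pam3 (adjusted p = 0.00132) and -3.76 for the interaction. The ratio of summed counts to those 2 libraries, per library size, was 196 for the 3 Pam3 libraries (exact 95% interval 66.7 to 951) and 7.39 for the 3 TGFβ libraries (2.31 to 37.7), with intervals that cover counting error only. In the fit of the 7 other libraries, which rests on the same 3 counts, the TGFβ effect without Pam3 was also called (adjusted p = 0.000899). With all libraries the interaction was -2.05 (SE 0.64, adjusted p = 0.0334), and it was not called in 8 of 20 alternatives, in each of which 1 library was left out. Lcn2 thus responded to Pam3 in both media, while the size of the difference between the media rested on a few counts.

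Saa3 (ENSMUSG00000040026, chr7:46361422-46365576, minus strand, 4 exons) encodes an acute-phase serum amyloid A protein made by macrophages. Its level was 0.605, 0.361 and 0.513 CPM in the untreated libraries and 0.443, 0.370 and 0.157 CPM with TGFβ. It reached 7.44, 6.29 and 6.96 CPM with Pam3, and 1.63, 2.33 and 1.63 CPM with both agents. As for Lcn2, the groups with Pam3 lay apart from those without it and from each other, while the untreated and TGFβ groups overlapped. The log2 Pam3 response of Saa3 was 3.80 without TGFβ (SE 0.28, adjusted p = 1.88e-10) and 2.52 with it (SE 0.31, adjusted p = 2.72e-07). In the presence of Pam3, TGFβ lowered it by 3.70-fold (log2 difference -1.89, SE 0.24, adjusted p = 4.09e-07). The TGFβ effect without Pam3 was -0.60 (95% interval -1.33 to 0.13, adjusted p = 0.169). The interaction was -1.29 (SE 0.44, adjusted p = 0.0451), and 13 of 21 alternatives did not call it, among them the fit of the 7 libraries (-1.64, adjusted p = 0.187) and the fit with the 2 rows' share as a covariate (-1.33, adjusted p = 0.0526).

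The promoters of Lcn2 and Saa3 are shown because both genes went from under 1 CPM to over 6 CPM with Pam3. RefSeq promoters (GRCm38.p6, 250 bases before to 50 after the start site) were available for 7 of the 9 members, and not for Slc40a1 and Slc11a2. They were searched on both strands for TTGCNNAA, a motif of C/EBP factors, and for the kB consensus of NF-kB factors. The stretches print the motif match in capitals with 20 bases on either side.
Lcn2, chr2:32387928-32387975, minus strand: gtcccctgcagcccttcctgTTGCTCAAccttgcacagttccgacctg
Saa3, chr7:46715748-46715795, minus strand: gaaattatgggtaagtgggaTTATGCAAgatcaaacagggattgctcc
The matches begin 216 bases before the start site of Lcn2 and 99 bases before that of Saa3, where the letters are read on the opposite strand. TTGCNNAA occurred in 10.8% of 32851 promoters of this length and the kB consensus in 8.46%. The kB consensus was not found in these 2 windows, which says only that these letters are not there. Of the other members searched, Fth1 held 2 TTGCNNAA matches in 1 of its 2 windows, Ftl1 held 1 kB match, and Steap4, which had 5 counts or fewer in every library, held 1 TTGCNNAA and 2 kB matches. Slc11a1 and Tfrc, which Pam3 raised without TGFβ, held neither.

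Slc11a1 (ENSMUSG00000026177, chr1:74414303-74425448, plus strand, 15 exons) encodes NRAMP1, the metal pump of the phagosome membrane. Its level was 21.9, 29.6 and 24.7 CPM untreated and 2.71, 2.15 and 3.25 CPM with TGFβ. With Pam3 it was 42.2, 38.0 and 47.2 CPM, and with both agents 9.51, 7.39 and 8.74 CPM. The 4 groups did not overlap, and ran from TGFβ at the bottom through Pam3+TGFβ and untreated to Pam3 at the top. TGFβ lowered Slc11a1 by 9.42-fold without Pam3 (log2 difference -3.24, SE 0.15, adjusted p = 9.89e-14) and by 4.96-fold with it (-2.31, SE 0.13, adjusted p = 3.42e-12). Pam3 raised it by 1.67-fold without TGFβ (0.74, SE 0.12, adjusted p = 9.95e-05) and by 3.17-fold with TGFβ (1.66, SE 0.15, adjusted p = 1.77e-08). The Pam3 response was larger with TGFβ (interaction 0.92, SE 0.19, adjusted p = 0.00185). Even so, the mean level with both agents was 0.337 of the untreated level. None of these 5 calls was lost in the 21 or 22 alternatives run for each.

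Slc11a2 (ENSMUSG00000023030, chr15:100285776-100322953, minus strand, 17 exons) encodes DMT1, which carries ferrous iron out of the endosome. It varied less: 41.7, 45.8 and 45.0 CPM untreated, 33.6, 36.1 and 34.1 CPM with TGFβ, 78.7, 69.7 and 70.9 CPM with Pam3, and 66.9, 65.7 and 65.1 CPM with both. The groups did not overlap, and both groups with Pam3 lay above both without it. Pam3 raised Slc11a2 by 1.66-fold without TGFβ (log2 difference 0.73, SE 0.06, adjusted p = 1.94e-09) and by 1.91-fold with it (0.93, SE 0.06, adjusted p = 3.6e-12). The interaction was 0.20 (95% interval 0.02 to 0.38, adjusted p = 0.127). TGFβ lowered it without Pam3 (-0.35, SE 0.06, adjusted p = 3.47e-05), where the fit of the 7 libraries gave -0.25 (adjusted p = 0.0564). With Pam3 the TGFβ effect was -0.15 (SE 0.06, adjusted p = 0.0466), a call lost in 13 of 22 alternatives, among them DESeq2 (adjusted p = 0.0705). DMT1 and NRAMP1 are paralogs that move the same metals across different membranes, and Pam3 raised both messages in each medium. Per kilobase of exon, the ratio of Slc11a2 to Slc11a1 was 0.557 to 0.685 in untreated, 0.541 to 0.672 in Pam3, 3.77 to 6.04 in TGFβ and 2.53 to 3.20 in Pam3+TGFβ libraries. The untreated and Pam3 groups overlapped, while with TGFβ in the medium the ratio was lower with Pam3 than without it.

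Slc40a1 (ENSMUSG00000025993, chr1:45947211-45965683, minus strand, 8 exons) encodes ferroportin, the known cellular exporter of iron. It was lowered by each agent and lay at its lowest where both were present. The untreated libraries held 49.8, 48.3 and 50.9 CPM, the Pam3 libraries 20.4, 21.7 and 16.6 CPM, the TGFβ libraries 12.6, 11.6 and 11.0 CPM, and those with both agents 3.32, 3.69 and 3.82 CPM. No 2 groups overlapped, and the mean with both agents was 13.8-fold below the untreated mean. Pam3 lowered Slc40a1 by 2.53-fold without TGFβ (log2 difference -1.34, SE 0.09, adjusted p = 3.48e-11) and by 3.24-fold with it (-1.70, SE 0.11, adjusted p = 1.38e-12). TGFβ lowered it by 4.23-fold without Pam3 (-2.08, SE 0.09, adjusted p = 7.24e-16) and by 5.42-fold with it (-2.44, SE 0.11, adjusted p = 5.12e-16). The interaction was -0.36 (95% interval -0.64 to -0.07, adjusted p = 0.0918), so a departure from effects that multiply was not called. It was called when Pam3 replicate 3 was left out (-0.45, adjusted p = 0.0209). The calls of the other 4 comparisons of Slc40a1 held in all 22 alternatives.

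**Figure D2:**
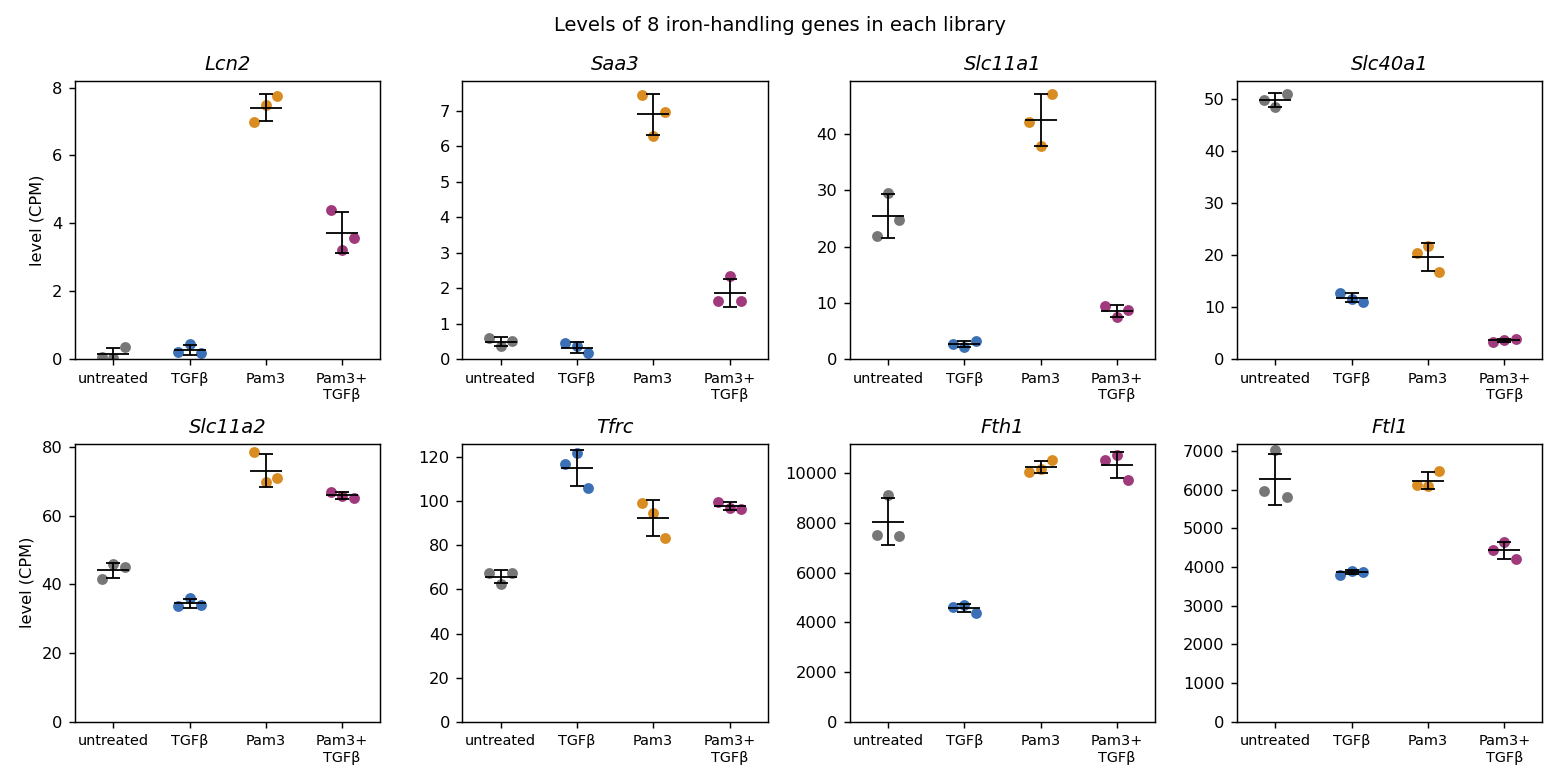
Level in CPM (y axis, from 0) of each tested member in each of the 12 libraries, by group (x axis). Points are libraries, horizontal bars are means and error bars are SD of 3 libraries. Slc40a1 falls from 48.3 to 50.9 CPM in untreated libraries to 3.32 to 3.82 CPM with both agents, while Lcn2 and Saa3 are near 0 without Pam3.

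Tfrc (ENSMUSG00000022797, chr16:32427556-32451612, plus strand, 19 exons) encodes the transferrin receptor, the main route of iron uptake in most cells. Its level was 67.4, 62.6 and 67.5 CPM untreated and 117, 122 and 106 CPM with TGFβ. With Pam3 it was 99.0, 94.6 and 83.3 CPM, and with both agents 99.7, 97.0 and 96.5 CPM. The untreated group was below all others and the TGFβ group above all others, while the 2 groups with Pam3 overlapped. TGFβ without Pam3 raised Tfrc by 1.75-fold (log2 difference 0.80, SE 0.06, adjusted p = 5e-11). Pam3 raised it by 1.40-fold without TGFβ (0.49, SE 0.06, adjusted p = 2.19e-06) and lowered it by 1.18-fold with TGFβ (-0.23, SE 0.06, adjusted p = 0.00381). The 2 responses differed by -0.72 (SE 0.09, adjusted p = 1.02e-06), and the sign and call of each response and of the interaction held in all alternatives run. In the presence of Pam3 the TGFβ effect was 0.08 (95% interval -0.05 to 0.21, adjusted p = 0.307). The Tfrc message, in which the search found 4 iron-responsive elements behind the coding sequence, thus went in opposite directions with Pam3, depending on the medium. Whether these elements play a part was not tested.

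Steap4 (ENSMUSG00000012428, chr5:8010260-8032214, plus strand, 5 exons) encodes a metalloreductase that reduces ferric iron. It had 0, 0 and 0 counts in the untreated libraries and 0, 1 and 1 with TGFβ. With Pam3 it had 1, 1 and 3 counts, and with both agents 1, 1 and 5. A count of 3, the limit that a count of 0 allows, stands for 0.0678 to 0.0953 CPM in these libraries. Every library with Pam3 held at least 1 count and no untreated library held any. Differences between groups were not tested, since Steap4 did not pass the filter. These limits cover counting error only, since the reads carry no molecular identifiers.

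Fth1 (ENSMUSG00000024661, chr19:9957911-9962462, plus strand, 4 exons) encodes the ferritin heavy chain, which oxidises iron as it enters the cage. Its level was 7508, 9141 and 7492 CPM untreated and 4629, 4717 and 4397 CPM with TGFβ. With Pam3 it was 10062, 10158 and 10547 CPM, and with both agents 10552, 10724 and 9722 CPM. The TGFβ group was below and the 2 groups with Pam3 above the untreated group, and the 2 groups with Pam3 overlapped. TGFβ without Pam3 lowered Fth1 by 1.76-fold (log2 difference -0.81, SE 0.06, adjusted p = 8.13e-11). Pam3 raised it by 2.26-fold with TGFβ (1.17, SE 0.06, adjusted p = 1.32e-13). Without TGFβ Pam3 raised it by 1.27-fold (0.35, SE 0.06, adjusted p = 0.000235), where the fit of the 7 libraries gave 0.28 (adjusted p = 0.0895). The difference of the responses was 0.82 (SE 0.09, adjusted p = 2.05e-07) and was called in all 22 alternatives. In the presence of Pam3 the TGFβ effect was 0.01 (95% interval -0.12 to 0.14, adjusted p = 0.911), so the difference seen with TGFβ alone was not seen where Pam3 was present.

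Ftl1 (ENSMUSG00000050708, chr7:45107367-45109308, minus strand, 4 exons) encodes the ferritin light chain, which helps iron to form its mineral core. Its level was 5979, 7031 and 5809 CPM untreated, 3807, 3901 and 3880 CPM with TGFβ, 6122, 6091 and 6488 CPM with Pam3, and 4442, 4654 and 4206 CPM with both. The untreated and Pam3 groups overlapped and lay above both groups with TGFβ, which did not overlap each other. TGFβ lowered Ftl1 by 1.62-fold without Pam3 (log2 difference -0.70, SE 0.06, adjusted p = 5.43e-10) and by 1.41-fold with it (-0.49, SE 0.06, adjusted p = 3.01e-07). The Pam3 response without TGFβ was -0.01 (95% interval -0.14 to 0.12, adjusted p = 0.947). With TGFβ it was 0.20 (SE 0.06, adjusted p = 0.0123), a call lost in 5 of 24 alternatives, among them upper-quartile scaling (0.14, adjusted p = 0.0856) and the fit of the 7 libraries (0.17, adjusted p = 0.164). The interaction was 0.21 (95% interval 0.03 to 0.39, adjusted p = 0.119). Ferritin genes have many processed copies in the mouse genome. Of the copies of at least 85% identity over 200 bases that have a row in the count table, Ftl1-ps2 had 159 counts over all libraries, F630206G17Rik 8 and Gm36913, which shares sequence with Fth1, 50. Adding them to their parents changed no call, and how reads from copies without a row were counted is not given in the sources used here.

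Together the 2 ferritin messages held 1.27% to 1.60% of all counts in untreated, 0.866% to 0.965% in TGFβ, 1.52% to 1.57% in Pam3 and 1.39% to 1.54% in Pam3+TGFβ libraries. The ratio of the chains sets the kind of ferritin cage a cell can build, with heavy-rich cages taking up iron faster. Per kilobase of exon the ratio of Fth1 to Ftl1 was 0.478, 0.495 and 0.491 in untreated libraries, 0.463, 0.461 and 0.432 with TGFβ, 0.626, 0.635 and 0.619 with Pam3, and 0.905, 0.878 and 0.881 with both. The 4 groups did not overlap, and the mean ratio with both agents was 1.96-fold that with TGFβ alone. The exonic length of Fth1 here (3.52 kb) covers every annotated exon of the gene, so the ratio compares groups and does not count chains. The ratio of Tfrc to Slc40a1, an uptake message over the export message, was 1.73 to 1.81 in untreated, 5.80 to 6.69 in Pam3, 12.3 to 14.0 in TGFβ and 33.7 to 40.1 in Pam3+TGFβ libraries. The ratio of Tfrc to Fth1, an uptake over a storage message, followed another order: it was 0.0120 to 0.0129 with TGFβ, and 0.00341 to 0.00449 in untreated, 0.00393 to 0.00490 in Pam3 and 0.00450 to 0.00494 in Pam3+TGFβ libraries. An exact permutation test, two-sided, of 3 libraries against 3 cannot go below 0.1, and 16 such tests were made over 4 ratios. Each exact test gave p = 0.1 (adjusted p = 0.123) except the Pam3 response without TGFβ of Tfrc to Fth1 (p = 0.5, adjusted p = 0.571) and of Slc11a2 to Slc11a1 (p = 0.7, adjusted p = 0.7), and the TGFβ effect with Pam3 on Tfrc to Fth1 (p = 0.6, adjusted p = 0.64).

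**Figure D3:**
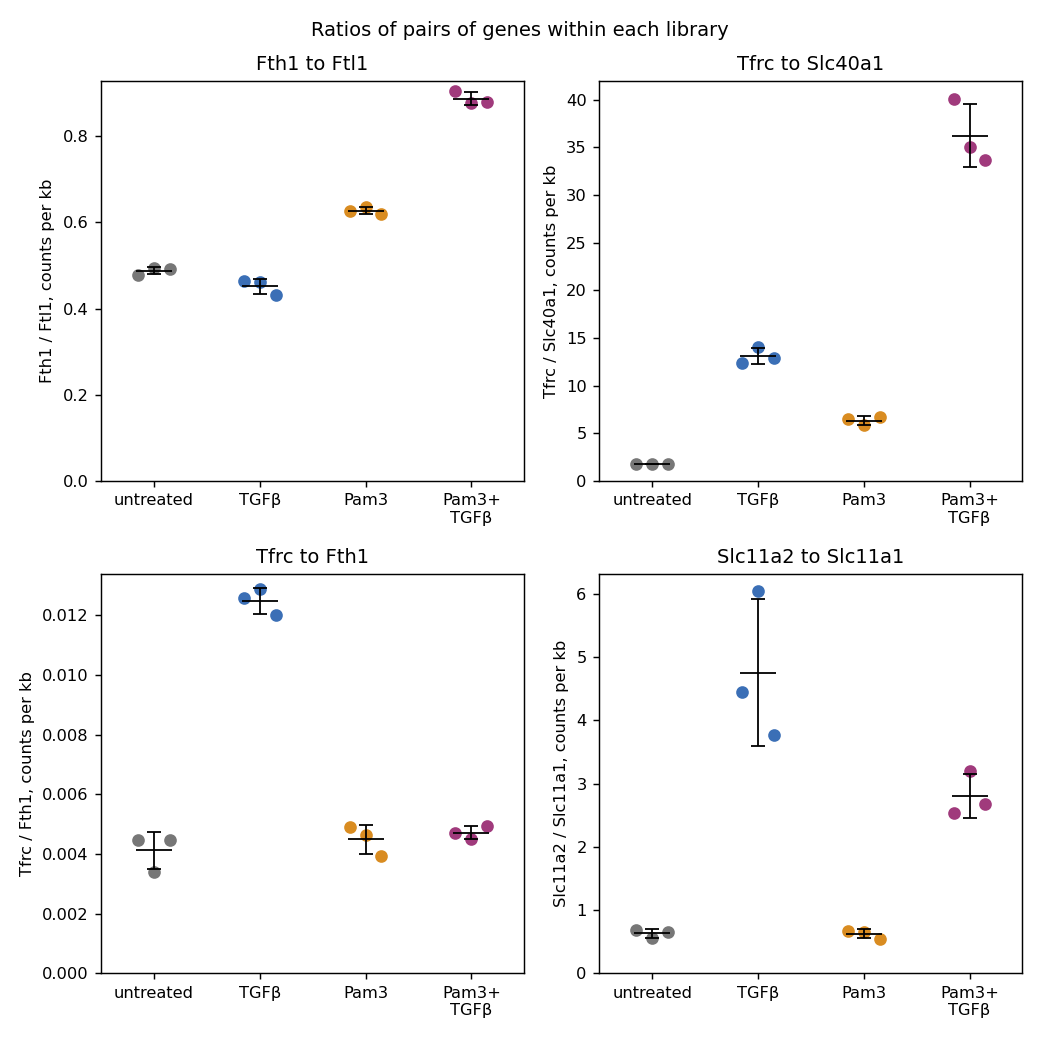
Ratios of counts per kilobase of exon within each library (y axes, from 0), by group (x axis), for Fth1 to Ftl1, Tfrc to Slc40a1, Tfrc to Fth1 and Slc11a2 to Slc11a1. Points are libraries, horizontal bars are means and error bars are SD of 3 libraries. The Pam3+TGFβ libraries lie above all others in the upper panels, at 0.878 to 0.905 and at 33.7 to 40.1, and the TGFβ libraries lie above all others in the lower panels.

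Levels of different genes can be compared only per length. In untreated cells Ftl1 (4678 ± 493 CPM per kb) and Fth1 (2286 ± 269 CPM per kb) were far above Tfrc (9.31 ± 0.40), Slc11a1 (6.38 ± 0.97), Slc40a1 (5.27 ± 0.14) and Slc11a2 (3.99 ± 0.20). Saa3 (0.158 ± 0.040 CPM per kb) and Lcn2 (0.0532 ± 0.0671) were lowest among the 8. With Pam3, Lcn2 reached 2.82 ± 0.15 and Saa3 2.21 ± 0.18 CPM per kb, beside 2.08 ± 0.28 for Slc40a1. With both agents Slc40a1, at 0.383 ± 0.028 CPM per kb, was below Lcn2 (1.42 ± 0.23) and Saa3 (0.597 ± 0.130). These orders depend on lengths that cover every annotated exon: 9.42 kb for Slc40a1, 3.12 kb for Saa3 and 2.62 kb for Lcn2. Before division by length, Slc40a1 with both agents (3.61 ± 0.26 CPM) was above Saa3 (1.86 ± 0.41) and near Lcn2 (3.72 ± 0.61). With Pam3 alone Slc40a1 (19.6 ± 2.7 CPM) was above Lcn2 (7.40 ± 0.40) and Saa3 (6.90 ± 0.58).

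Other genes of iron, haem and metal handling were taken from 7 lists of 68 genes, of which 53 passed the filter. Pam3 raised 10 of the 53 and lowered 7 without TGFβ, where 9.62% of all tested genes were higher and 8.66% lower. With TGFβ it raised 18 and lowered 8 (all genes 20.4% and 18.1%), a split that became 15 and 15 with upper-quartile scaling. TGFβ raised 16 and lowered 21 without Pam3 (all genes 22.9% and 28.1%), and raised 14 and lowered 13 with it (21.5% and 23.8%). The interaction was called higher for 13 and lower for 2 (10.3% and 5.67%). In the fit of the 7 libraries fewer list genes were called in each comparison, as were fewer of all genes. Their median log2 difference lay between -0.03 and 0.09 in the 5 comparisons, and setting genes at the floor of 3 counts to their bound left the 4 group medians between -0.03 and 0.07. Steap2, Ftmt, Hjv, Lrp2 and Saa2 had no count in any library.

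Among 11 genes of iron uptake and reduction, 7 were tested. TGFβ raised 4 and lowered 1 in each medium, where 22.9% and 21.5% of all genes were higher and 28.1% and 23.8% lower without and with Pam3. Pam3 raised 1 and lowered 2 in each medium, where 9.62% and 20.4% of all genes were higher and 8.66% and 18.1% lower without and with TGFβ. Trf, which encodes transferrin, was raised by TGFβ (log2 difference 1.09 without Pam3, adjusted p = 4.61e-15, and 1.01 with it, adjusted p = 2.77e-14). Slc39a14, the importer ZIP14 for iron that is not bound to transferrin, was raised by Pam3 without TGFβ (0.30, adjusted p = 0.000764) and more so with it (0.84, adjusted p = 1.4e-11; interaction 0.54, adjusted p = 3.75e-05, and 0.42, adjusted p = 0.0784, in the fit of the 7 libraries). Its relative Slc39a8 (ZIP8) was raised by TGFβ without Pam3 (1.36, adjusted p = 1.18e-06) and lowered by Pam3 with TGFβ (-0.88, adjusted p = 0.000361). Steap3, an endosomal ferrireductase, was lowered by TGFβ (-1.05 without Pam3, adjusted p = 3.79e-12, and -0.71 with it, adjusted p = 7e-09). Tfr2, the second transferrin receptor, had 2, 0 and 1 counts in Pam3 libraries and 17, 18 and 16 with both agents, which is at least 5.29-fold higher against the floor of 3 counts per library. That TGFβ effect was called (adjusted p = 0.000552) but not in the fit of the 7 libraries (adjusted p = 0.0668). The uptake genes thus did not share 1 direction.

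Of 3 tested genes of storage and ferritin turnover, Pam3 raised 2 with TGFβ (all genes 20.4%) and TGFβ lowered 1 without Pam3 (all genes 28.1%) and raised 1 and lowered 1 with it (21.5% and 23.8%). Ncoa4, the receptor that takes ferritin to the lysosome, was lowered by TGFβ without Pam3 (-0.74, adjusted p = 8.57e-13) and raised by Pam3 with TGFβ (0.66, adjusted p = 1.34e-11; interaction 0.59, adjusted p = 2.26e-07). Without TGFβ its Pam3 response was 0.07 (adjusted p = 0.374). Pcbp1, a chaperone that delivers iron to ferritin, was raised by Pam3 with TGFβ (0.17, adjusted p = 0.00695; in the fit of the 7 libraries 0.15, adjusted p = 0.211). Of 5 tested genes of iron sensing, Pam3 raised 1 and lowered 2 in each medium, and TGFβ raised none and lowered 3 without and 2 with Pam3 (the shares of all genes are those given above). Fbxl5, the iron-sensing part of the ligase that degrades iron-regulatory protein 2, was raised by Pam3 in both media (0.61, adjusted p = 2.63e-08, and 0.82, adjusted p = 2.62e-11). Epas1, which encodes HIF-2α and whose message is known to carry an iron-responsive element, was lowered by Pam3 (-0.62, adjusted p = 1.96e-08) and by TGFβ (-1.29, adjusted p = 1.78e-15). Of Aco1 and Ireb2, whose messages encode the iron-regulatory proteins, the TGFβ effect on Aco1 without Pam3 was called (-0.11, adjusted p = 0.0326) and no other comparison of either was, while the fit of the 7 libraries gave -0.07 for that effect (adjusted p = 0.544). Of the export list, the convertase Furin, which cuts prohepcidin, was lowered by Pam3 without TGFβ (-0.38, adjusted p = 3.99e-06), and Hamp, which encodes hepcidin, had at most 18 counts in a library and was not tested.

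Among 16 genes of haem uptake, breakdown and transport, 15 were tested. TGFβ without Pam3 lowered 10 and raised 2, where 28.1% of all genes were lower and 22.9% higher. In the presence of Pam3 it lowered 5 and raised 2, where 23.8% of all genes were lower and 21.5% higher. Pam3 raised 6 and lowered 2 without TGFβ (all genes 9.62% and 8.66%), and raised 7 and lowered 1 with it (20.4% and 18.1%). Hp (haptoglobin, which binds free haemoglobin) was lowered by TGFβ without Pam3 (-2.22, adjusted p = 1.91e-08) and raised by Pam3 with TGFβ (2.35, adjusted p = 1.65e-08; interaction 1.29, adjusted p = 0.000446, and 1.16, adjusted p = 0.223, in the fit of the 7 libraries). Flvcr2, a relative of the haem exporter FLVCR1, had the opposite signs, with TGFβ effects of 1.77 (adjusted p = 1.7e-19) and 1.53 (adjusted p = 5.22e-18) and Pam3 responses of -0.70 (adjusted p = 2.93e-10) and -0.93 (adjusted p = 8.06e-14). Alas1, which starts haem synthesis, was raised by Pam3 (0.62 without TGFβ, adjusted p = 9.24e-08). Hmox1, which frees iron from haem, is named after its values were seen: TGFβ lowered it without Pam3 (-1.13, adjusted p = 1.13e-13), Pam3 raised it with TGFβ (1.27, adjusted p = 1.82e-14), and the interaction was 0.92 (adjusted p = 1.86e-08), near that of Fth1. Spic, a regulator of macrophages that recycle haem, had 15, 24 and 10 counts untreated and 0, 0 and 0 with TGFβ, which is at least 5.33-fold lower against the floor.

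Of 10 genes of mitochondrial iron and iron-sulphur clusters, all were tested. TGFβ raised 6 and lowered 1 without Pam3 (all genes 22.9% and 28.1%), and raised 4 and lowered 0 with it (21.5% and 23.8%). Slc25a37 (mitoferrin 1, the importer of iron into mitochondria) was raised in each of the 4 group comparisons, from 0.62 for Pam3 without TGFβ (adjusted p = 3.53e-07) to 1.61 for TGFβ with Pam3 (adjusted p = 5.32e-16). Of 16 genes of metal withholding and partners of lipocalin or serum amyloid, 11 were tested. Pam3 raised 1 and lowered 0 without TGFβ (all genes 9.62% and 8.66%), and raised 6 and lowered 1 with it (20.4% and 18.1%). TGFβ raised 4 and lowered 4 without Pam3 (22.9% and 28.1%), and raised 3 and lowered 4 with it (21.5% and 23.8%). S100a8, a subunit of the metal-binding protein calprotectin, was lowered by TGFβ (-2.17 without Pam3, adjusted p = 2.3e-13, and -1.95 with it, adjusted p = 1.2e-12). The partner subunit S100a9, at far fewer counts, was raised by TGFβ without Pam3: it had 20, 5 and 4 counts untreated and 34, 56 and 25 with TGFβ (1.96, adjusted p = 0.00498), and its TGFβ effect with Pam3 was 1.20 (adjusted p = 0.0664). S100a8 also makes up most of the neutrophil list, whose summed level was 13.9 to 16.0 CPM untreated, 4.58 to 6.12 with TGFβ, 16.8 to 17.4 with Pam3 and 5.96 to 7.90 with both, with Mpo at 0. Slc31a1, the copper importer CTR1, was raised by Pam3 in both media (0.63, adjusted p = 3.92e-09, and 0.80, adjusted p = 8.52e-12). Slc22a17, a receptor for lipocalin 2, was the 1 gene of the list lowered by Pam3 with TGFβ (-0.55, adjusted p = 0.0173; in the fit of the 7 libraries -0.24, adjusted p = 0.422).

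**Figure D4:**
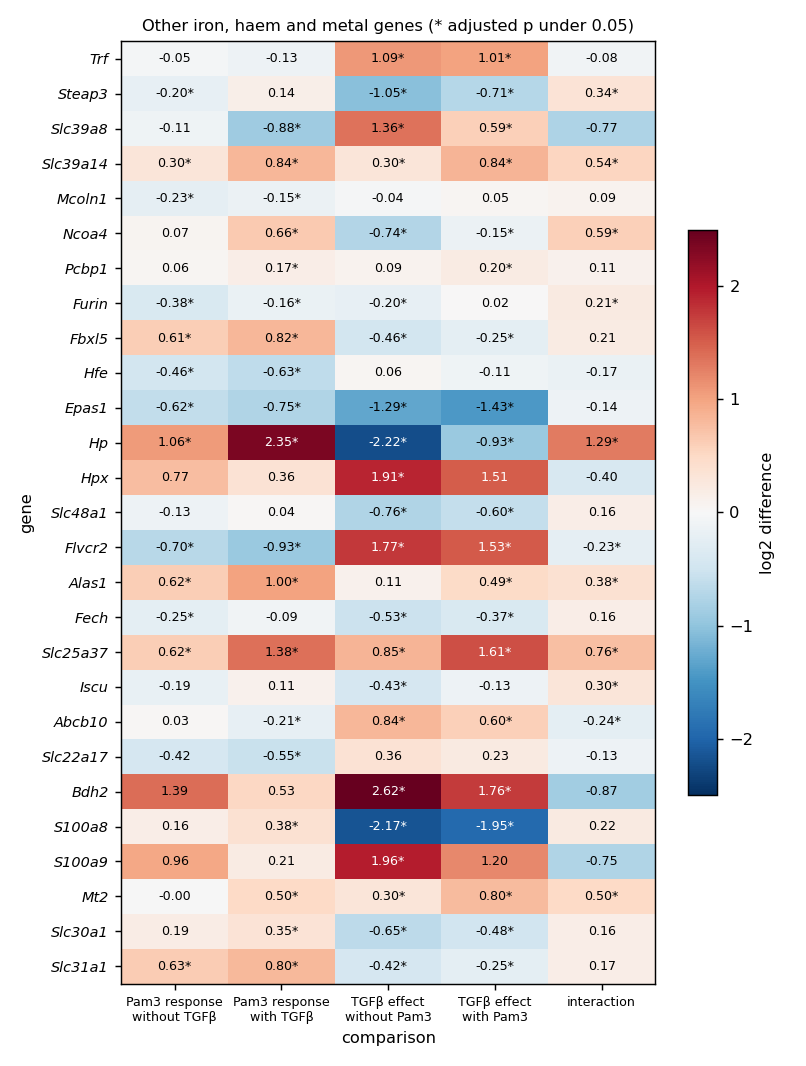
Log2 differences (colour and printed number, saturating at the ends of the scale) of 27 genes of the other iron, haem and metal lists (y axis) in the 5 comparisons (x axis), from edgeR's fit to 12 libraries, with an asterisk at an adjusted p under 0.05. Genes with all libraries of a group at 3 counts or fewer are left out. Hp and Ncoa4 are lower with TGFβ alone and higher with Pam3 in the presence of TGFβ, while Flvcr2 shows the opposite signs.

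For each member, the 2 named genes whose log2 CPM was most like its own over the 12 libraries were sought among genes of at least 1 CPM. For Slc40a1 they were Cerk (Pearson r = 0.997) and Tgfbr2 (0.994), and for Slc11a1 Rasgrp1 (0.995) and Aoah (0.993). For Fth1 they were Socs3 (0.993) and Mvp (0.992), and Glipr2 (0.987) was among those for Ftl1. For Slc11a2 they were Irak3 (0.992) and Slc31a1 (0.985), the copper importer named above. For Saa3 they were Pou2f2 (0.955) and Cx3cr1 (0.954), for Lcn2 Kpnb1 (0.952) and Klrb1b (0.950), and for Tfrc Sypl (0.950) and Tardbp (0.937). The 12 points share 4 groups and the same libraries, so these values describe a likeness of pattern across the groups.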

How the data were processed

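The deposited table gives raw counts for 12 libraries, 1 row per symbol, and 17090 of 40847 rows held no count. Column names with UNT were taken as the titles with UT. The authors' deposited normalized values are a signal, the counts scaled per library, and were used in 1 alternative only (limma 3.58.1 on log2 of the value plus 1). Per the submitters' processing notes, bcl2fastq 2.20.0, FastQC 0.11.7, Bowtie2 2.4.1, featureCounts of Subread 2.0.0, DESeq2 1.36.0, R 4.2.1 and GRCm39 were used. Which annotation was used, whether counting used strand, and what became of reads with several alignments are not given in the sources used here. Bowtie2 aligns without splicing, so junction reads may go missing or land on processed copies, which bears on the ferritin genes.

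In R 4.3.3, filterByExpr (minimum count 10) chose the genes and TMM scaled the libraries. The model was that of edgeR 4.0.16 (robust quasi-likelihood), with 1 mean for each of 4 groups over the 12 libraries and 5 contrasts. SE is the log2 difference over the square root of F. The script was tested on simulated data. DESeq2 1.42.0, other scalings and filters, a replicate block and leaving out each library were alternatives. Exon lengths and untranslated regions are from GENCODE M39 on GRCm39, matched by symbol for 32481 rows. Pairs of replicates differed by chi-square per degree of freedom of 9.99 to 220, so no library appeared to be deposited again. The members and gene lists were chosen with earlier results of these data known. A few items are not reported here. Besides the members, the rule named up to 2 called genes per list, contrast and direction where each library of the higher group had 10 counts or more.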

Additional observations from a re-analysis of the deposited data

Results flagged for a closer look

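For 5 members the interaction of Pam3 and TGFβ was called with all 12 libraries by the interaction term of edgeR's quasi-likelihood test (3 libraries a group, adjusted over all genes). The difference on the log2 scale was -2.05 for Lcn2 (adjusted p = 0.0334), -1.29 for Saa3 (adjusted p = 0.0451), 0.92 for Slc11a1 (adjusted p = 0.00185), -0.72 for Tfrc (adjusted p = 1.02e-06) and 0.82 for Fth1 (adjusted p = 2.05e-07). The call was lost in 8 of 20 alternatives for Lcn2 (adjusted p = 0.000216 to 0.198) and in 13 of 21 for Saa3 (adjusted p = 0.00933 to 0.187), and in none for Slc11a1, Tfrc and Fth1. Without untreated replicate 3 the Lcn2 value was -3.76, which rests on 3 untreated counts. Tfrc is the member whose 2 responses were called in opposite directions.

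The same test found a difference for these named genes of the other lists. It was 0.54 for Slc39a14 (adjusted p = 3.75e-05), 0.34 for Steap3 (adjusted p = 0.0209), 0.59 for Ncoa4 (adjusted p = 2.26e-07) and 0.21 for Furin (adjusted p = 0.0397). It was 1.29 for Hp (adjusted p = 0.000446) and -0.23 for Flvcr2 (adjusted p = 0.0304). It was 0.76 for Slc25a37 (adjusted p = 2.64e-06), 0.30 for Iscu (adjusted p = 0.0436), -0.24 for Abcb10 (adjusted p = 0.0382) and 0.50 for Mt2 (adjusted p = 0.00802). With all 12 libraries 15 of the 53 list genes were called for the interaction, and 2352 of all 14749 genes. With the share of the rows LOC118568312 and AY036118 as a covariate these were 13 and 2107. In the fit of the 7 libraries with low shares on the 2 rows, fewer list genes were called, as were fewer of all genes. The genes named here that were still called in that fit were Ncoa4 (0.42) and Slc25a37 (0.61). In that fit the others had adjusted p = 0.0784 (Slc39a14), 0.204 (Steap3), 0.0608 (Furin), 0.223 (Hp), 0.309 (Flvcr2), 0.311 (Iscu), 0.242 (Abcb10) and 0.121 (Mt2), each with the same sign. Of the members, Saa3 was not called in that fit (-1.64, adjusted p = 0.187).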

How the results depend on the processing

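Of 40 values of tested members, 26 had the same direction and the same side of the threshold under all alternatives run. Signs reversed for values that were not called: the Pam3 response of Ftl1 without TGFβ (-0.063 to 0.0825 when 1 library was left out: 0.0825 without untreated replicate 2, 0.0056 without Pam3 replicate 1, 0.0072 without Pam3 replicate 2), the TGFβ effect on Fth1 with Pam3 (-0.0032 with upper-quartile scaling, and -0.012 to 0.053 when 1 library was left out: -0.0066 without Pam3+TGFβ replicate 1, -0.012 without replicate 2) and that on Tfrc with Pam3 (-0.0082 in the fit of 7 libraries). Requiring 10 counts in every library left 3 members called for the interaction and 3 for TGFβ in the presence of Pam3, since Lcn2 and Saa3 were then not tested and Slc11a2 lost its call for TGFβ with Pam3 (adjusted p = 0.0661). Leaving out 1 library gave 3 to 5 members called for the interaction, 3 without untreated replicate 2, TGFβ replicate 2, Pam3 replicate 2 or Pam3+TGFβ replicate 3. The interaction of Slc11a2 was called without Pam3 replicate 1 (adjusted p = 0.0495) and that of Ftl1 without untreated replicate 3 (adjusted p = 0.0325).

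The fit of 7 libraries and the covariate were chosen after seeing the data. With 7 libraries, 1173, 3370 and 802 of all genes were called for the Pam3 response without and with TGFβ and for the interaction, against 2697, 5678 and 2352, and 11, 17 and 3 list genes against 17, 26 and 15; fewer libraries were fitted. The members called were then 6, 7, 6, 6 and 4 in the order of the comparisons, against 7, 8, 6, 6 and 5. With a replicate block 5 members were called for the TGFβ effect with Pam3 (Slc11a2 adjusted p = 0.0525) and 4 for the interaction (Saa3 -1.28, adjusted p = 0.0543), and 2393 of all genes for the interaction. Deviations of libraries with the same number correlated at -0.136 to 0.3, over 0.1 in 5 of 12 pairs. These deviations are from means of 3 libraries, so they cannot settle whether the numbers mark a shared culture or day. A fit of Fth1 with pseudogenes matched by symbol was not run, as no such row was present. Depth limits Steap4, Lcn2 and Saa3 without Pam3.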
